A study of Mus musculus with 2 samples.

Results

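Granzymes A and B are the serine proteases that cytotoxic lymphocytes store in secretory granules and deliver into target cells. Their genes, Gzma and Gzmb, were taken as every probe set whose single gene symbol in the platform annotation is Gzma or Gzmb. Each gene had 1 probe set, so the members were 2 of the 15279 probe sets that are not array controls, and 2 of 8721 named genes. They were chosen because their signals were lower on the MIF array, so those differences are a description and were not tested.

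Epithelial cells came from the colon of C57BL/6 animals, an inbred strain of mouse, at an age of 7 weeks. One preparation was incubated with PBS, a buffered salt solution, and the other with MIF, taken here to be the cytokine macrophage migration inhibitory factor. Total RNA of each was labelled with biotin and hybridised to 1 Affymetrix array, so there was 1 sample in each of the 2 groups. With no replicates, the spread between samples is unknown, so no test was run and no p-value is given. How many animals were used, how cells were isolated, and the MIF dose and exposure time are not stated in the sources used here.

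Granzymes enter a target cell with the help of perforin, a protein that makes pores in membranes. Granzyme B cuts after aspartate residues and activates caspases and Bid, whereas granzyme A cuts after basic residues and acts without caspases. In the gut both are products of intraepithelial lymphocytes, T cells that sit between epithelial cells, and of natural killer (NK) cells. Lymphocytes of this kind can remain in preparations of gut epithelium.

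The values are signal intensities per probe set on a linear scale, as deposited. Signals were compared with a floor of 232, the 40th percentile of the pooled signals. Genes above it on at least 1 array are called assessed, and a gene above it on a single array has only a bound for its difference. Of the named genes, 5545 exceeded the floor on both arrays, 142 did so for PBS only and 150 for MIF only. The median signal of all probe sets was 336 with PBS and 345 with MIF. Each difference is the log2 MIF signal minus the log2 PBS signal, and the median difference over the 5837 assessed genes was -0.01.

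Gzma (Entrez Gene 14938), which encodes granzyme A, had a signal of 813 with PBS and 403 with MIF. The MIF signal was 49.6% of the PBS signal, a log2 difference of -1.01 or 2.02-fold lower. The PBS signal was 3.51 times the floor and the MIF signal 1.74 times the floor. Gzma is on chromosome 13, on the minus strand. The 250 bases before its start, from RefSeq (GRCm38.p6, chr13:113100982-113101231, minus strand), are shown 5′ to 3′ because both granzyme genes were lower together. Capitals mark matches to the motifs described after the Gzmb sequence.
Gzma: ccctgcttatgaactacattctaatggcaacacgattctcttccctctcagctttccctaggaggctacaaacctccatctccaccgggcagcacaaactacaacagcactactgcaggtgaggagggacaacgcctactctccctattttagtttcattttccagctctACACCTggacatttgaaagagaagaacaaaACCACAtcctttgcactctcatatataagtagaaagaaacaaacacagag

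Gzmb (Entrez Gene 14939), which encodes granzyme B, had a signal of 541 with PBS and 282 with MIF. The MIF signal was 52.0% of the PBS signal, a log2 difference of -0.94 or 1.92-fold lower. The PBS signal was 2.34 times the floor, but the MIF signal was 1.22 times the floor, so the Gzmb value is the nearer of the pair to the limit of assessment. Gzmb lies on chromosome 14, also on the minus strand. Its 250 bases before the start, from the same build (chr14:56262335-56262584, minus strand), are given in the same form.
Gzmb: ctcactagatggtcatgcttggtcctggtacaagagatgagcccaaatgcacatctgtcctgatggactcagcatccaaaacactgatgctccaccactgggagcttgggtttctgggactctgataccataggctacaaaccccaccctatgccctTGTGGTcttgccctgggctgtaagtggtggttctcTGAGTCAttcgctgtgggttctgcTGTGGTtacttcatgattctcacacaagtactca

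The 5 motifs that follow were searched on both strands of these windows, with those of factors known in cytotoxic T cells among them. The RUNX core TGTGGT, bound by a family that includes the CD8 T cell factor Runx3, was found in both promoters. It began 50 bases before the start of Gzma, on the opposite strand, and 93 and 34 bases before the start of Gzmb. It occurs in 14% of 32851 promoter windows of this length, so its presence in both is a description. The T-box half-site AGGTGT, bound by T-bet and Eomes, was found in Gzma 80 bases before the start, on the opposite strand, and is present in 11.8% of windows. The AP-1 element TGAGTCA was found in Gzmb 58 bases before the start and is present in 4.46% of windows. The CRE half-site TGACGT (6.47% of windows) and the gamma-activated site TTCNNNGAA, a binding site of STAT factors (7.02%), had no match in either window. None of the matches overlapped.

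**Figure D1:**
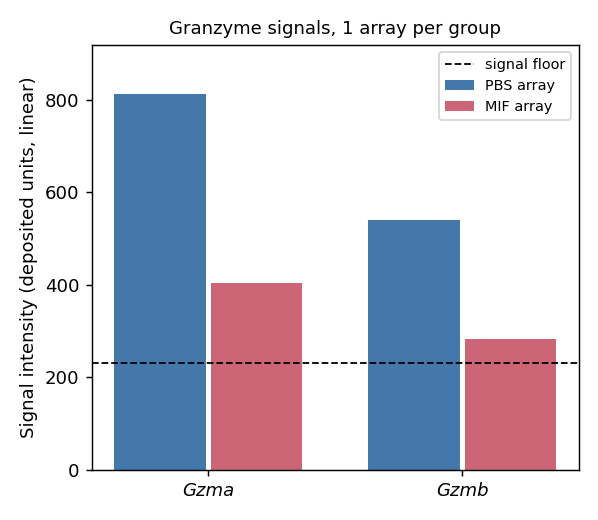
Bars show the deposited signal intensity (linear axis from 0) of Gzma and Gzmb on the PBS and MIF arrays, 1 array each and therefore no error bars; the dashed line is the signal floor of 232. Both genes are lower on the MIF array (403 against 813 and 282 against 541) and both stay above the floor.

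Both granzymes were thus lower by about the same amount, with log2 differences 0.07 apart. Of the assessed genes, 0.463% were lower by at least 1.5-fold and 0.0857% by at least 2-fold. Both granzymes were past 1.5-fold and Gzma was past 2-fold. As the pair was chosen on this contrast, nothing is read from these shares. Of the 5545 genes with both signals above the floor, Gzma had the second lowest difference, at rank 2, and Gzmb was at rank 8.

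The error behind these values could be gauged only within the arrays. Neither gene had a second probe set. For the 796 other genes with 2 or more probe sets of mean signal from 250 to 900, the log2 difference varied between probe sets of a gene with an SD of 0.16. Over the 863 genes whose mean log2 signal was within 0.25 of that of Gzma, the difference had an SD of 0.20. Over the 856 genes that close to Gzmb the SD was 0.21. These figures describe hybridisation and variation between genes, and hold nothing of the spread between cell preparations.

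**Figure D2:**
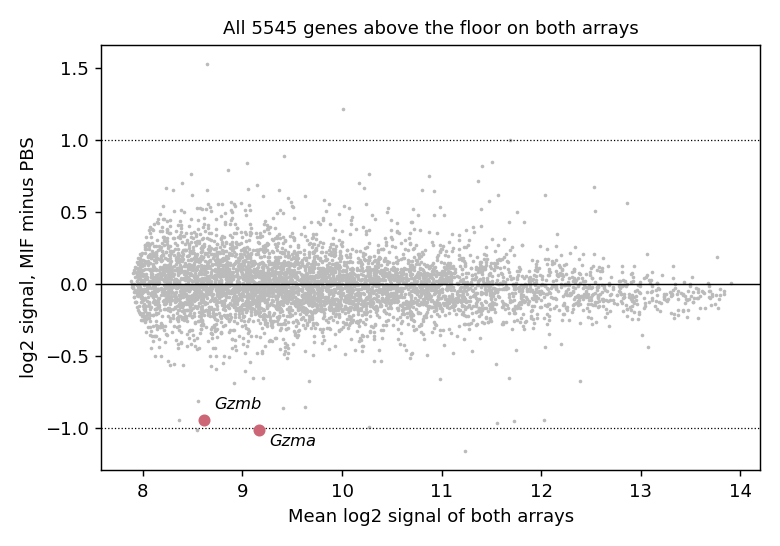
Each grey point is 1 of 5545 genes above the floor on both arrays; the x axis is its mean log2 signal and the y axis its log2 difference, MIF minus PBS, with dotted lines at 2-fold. Gzma (-1.01) and Gzmb (-0.94) are drawn in red at the lower edge of the cloud, in the dimmer part of the range.

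The lymphocytes that granzymes are usually taken to mark could not be assessed by their own genes. Of 42 listed T and NK cell genes, 9 were in the table and 8 of those were under the floor on both arrays. Their recorded signals spanned 17.3 to 92.8 with PBS and 13.2 to 55.3 with MIF. Among these 8, 6 were lower and 2 higher on the MIF array. Cd3g, a chain of the T cell receptor complex, was at 85.9 and 35.7, the largest log2 fall of the 8. Cd8a, the CD8 alpha chain of most gut intraepithelial lymphocytes, was at 28.5 and 25.7. The 2 higher were Eomes, at 20.1 and 27.9, and Thy1, at 52.1 and 55.3. Probe sets disagreed for Ets1, among the 6 lower. Its others were at 30.8 and 33.2, 30.3 and 15.1, and 44.4 and 34.3. The assessed member was Bcl11b, a T cell transcription factor that was 1.21-fold higher on the MIF array, at 405 and 490. The label of intraepithelial lymphocytes is therefore not borne out by defining markers on these arrays, and the genes are called here by their own names.

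Genes of intraepithelial lymphocyte residence and activation gave a similar picture. Of 25 listed, 11 were in the table and 10 were under the floor on both arrays. Itgae, the integrin that anchors these cells to the cadherin of epithelium, had a signal of 61.7 with PBS and 50.8 with MIF. Ccl5, a chemokine stored by cytotoxic T cells, was at 181 and 85.4. The natural killer receptor Cd160 was at 60.2 and 37.9, and the death ligand gene Fasl at 24.7 and 16.7. Of the 10 under the floor, 8 were lower and 2 higher on the MIF array. The 2 higher were the chemokine genes Xcl1, at 78.8 and 91.1, and Ccl4, at 57.1 and 76.6. Ahr, the aryl hydrocarbon receptor that maintains these lymphocytes, was assessed at 284 and 312, a log2 difference of 0.14. A second Ahr probe set lay under the floor at 73.5 and 49.5.

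Of 24 pan-leukocyte genes, 14 were in the table and 13 were under the floor on both arrays. Ptprc, the common leukocyte antigen CD45, was at 173 and 137. Lcp1, an actin-bundling protein of leukocytes, was at 164 and 218, among the 3 that were higher on the MIF array. Second probe sets of Lcp1 and of Laptm5, another of the 3, went the other way, at 115 and 105 for Lcp1 and 108 and 73.5 for Laptm5. Cd53, also among the 3, had 1 probe set, at 66.6 and 71.8. The assessed member was the phosphatase gene Ptpn6, at 395 and 339, a log2 difference of -0.22, and its second probe set was at 309 and 210.

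The signals under the floor were lower on the MIF array more often than not. Of the 31 lymphocyte and leukocyte genes under the floor on both arrays, 24 had a lower recorded signal on the MIF array and 7 a higher one, with a median log2 difference of -0.33. Over all 2884 genes under the floor on both arrays, 41.2% were lower and the median was 0.08. After quantile normalization 27 of the same 31 genes were lower, against 54.2% of all 2884, whose median turned to -0.03. With the other scalings tried, 24 of the 31 were lower. By list, 6 of 8 T and NK cell genes, 8 of 10 residence and activation genes and 10 of 13 pan-leukocyte genes were lower. The summed signal of these under-floor genes was 398 with PBS and 270 with MIF for T and NK cell genes, 821 and 645 for residence and activation genes, and 1208 and 1057 for pan-leukocyte genes. The log2 difference had an SD of 0.64 over all genes under the floor, so single values there carry little information. The part of lymphocyte numbers in the granzyme values was not tested. In RNA of a mixed preparation, fewer cells of a type and less RNA per cell cannot be told apart.

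**Figure D3:**
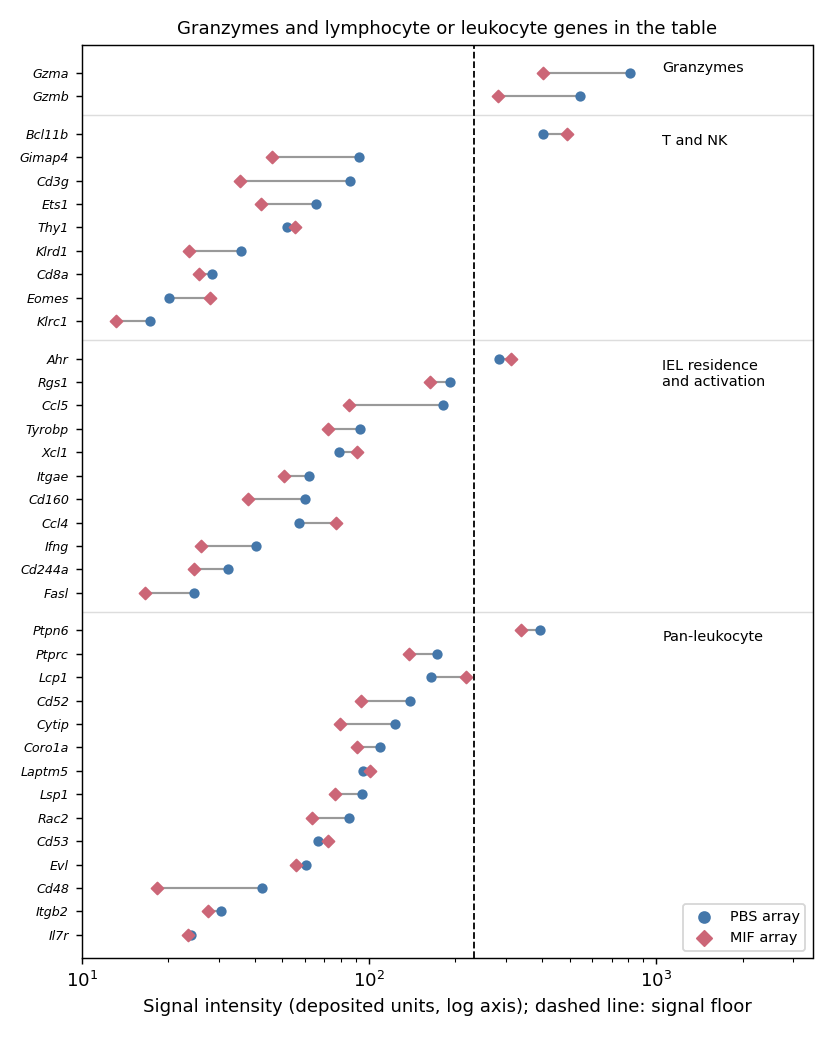
Each row is 1 gene, with its signal on the PBS array (blue circle) and the MIF array (red diamond) on a log axis; the dashed line is the floor of 232. The granzymes lie above the floor, whereas 31 of the 34 lymphocyte and leukocyte genes in the table lie under it on both arrays, and 24 of those 31 have the diamond on the left.

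Of 10 listed genes of the granzyme family, 2 were in the table, Gzma and Gzmb. The others, Gzmc to Gzmg, Gzmk, Gzmm and Gzmn, were not in it and could not be analysed. Related proteases of mast cells, which belong to the same group of serine proteases, were near the floor. Mcpt2, a mucosal mast cell protease, had a signal of 248 with PBS and 150 with MIF, at least 1.07-fold lower. Mcpt1 was under the floor on both arrays, at 226 and 136. The mast cell receptor gene Kit went the other way, at 167 and 254, at least 1.10-fold higher.

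Genes that load, mature or release granzymes were next examined. Of 21 listed, 18 were in the table and 11 were assessed, with 6 higher and 5 lower. None was past 1.5-fold in either direction, against 0.463% lower and 0.634% higher by that much over all assessed genes. Their median log2 difference was 0.04, against -0.01 over all assessed genes, of which 46.7% were higher. Most of these genes serve lysosomes and secretion in all cells, so their RNA need not come from lymphocytes. The members specific to cytotoxic cells were under the floor. Prf1, which encodes perforin, had a higher signal on the MIF array, opposite to the granzymes, at 40.2 with PBS and 80.0 with MIF. Its second probe set was at 18.8 and 22.8. Nkg7, a granule membrane protein, was at 47.9 and 32.7, and the cathepsin gene Ctsw at 75.6 and 52.0. Srgn, the proteoglycan core that holds granzymes in the granule, was just under the floor at 225 and 220. Of the 7 genes of this list under the floor on both arrays, 4 were lower and 3 higher on the MIF array. Besides Prf1, the higher ones were Rab27a, at 41.3 and 54.3, and Lyst, at 127 and 137. Over all genes under the floor on both arrays, 41.2% were lower.

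Among the assessed genes, Ctsc, the peptidase that removes the propeptide of granzymes, was at 4541 and 4795, a log2 difference of 0.08. The mannose 6-phosphate pathway sorts granzymes to granules. Its members Igf2r and M6pr, both receptors, differed by 0.24 and 0.04, and Gnptab, the enzyme that makes the tag, by 0.30. A second Igf2r probe set was under the floor at 224 and 199. The lysosomal membrane genes Lamp1 and Lamp2 differed by -0.02 and 0.37. The 3 other probe sets of Lamp2 gave 0.02, 0.22 and 0.30.

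Genes of vesicle fusion had small differences of both signs. Stxbp2, a partner of syntaxin needed for granule release, differed by -0.18, the vesicle proteins Vamp8 and Vamp7 by -0.23 and -0.10, and their target Snap23 by 0.17. The adaptor subunit gene Ap3b1 differed by -0.04, from 1986 to 1935. The probe sets disagreed for Vamp7 and Ap3b1, whose second probe sets gave 0.16 and 0.18. They also disagreed for Stxbp2, whose 2 others, which can cross-hybridise, gave 0.01 and -0.68.

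The intracellular inhibitors of granzymes were represented by 3 of 11 genes. Serpinb9, the inhibitor of granzyme B that protects cytotoxic cells and their neighbours, was at 111 on both arrays, under the floor. Serpinb6b was also under it, at 43.5 and 32.2. Serpinb6a, a related serpin, had a signal of 5791 with PBS and 5436 with MIF, a log2 difference of -0.09.

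Transcripts of proteins that granzymes are known to cleave had nearly equal signals. Of 31 listed, 25 were in the table and 23 assessed, 15 lower and 8 higher, with none past 1.5-fold. Their median was -0.07. Over all assessed genes 53.3% were lower. Lmna, which encodes lamins A and C of the nuclear envelope, had the largest difference, -0.51, from 1967 to 1377, and its second probe set gave -0.36. The chromatin protein gene Hmgb2 differed by 0.38, but its second probe set gave -0.16. The complex I subunit gene Ndufv1 differed by -0.25 and the mitochondrial protein gene Hax1 by -0.22. Bid, through which granzyme B acts on mitochondria, was at 317 and 338, and the initiator caspase gene Casp8 at 2161 and 2201.

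Epithelial genes that attract or sustain intraepithelial lymphocytes were mixed. Of 30 listed, 18 were in the table and 10 assessed, 6 higher and 4 lower, with a median of 0.06, against 46.7% higher and 53.3% lower over all assessed genes. None was past 1.5-fold, as was the case for nearly all assessed genes. This median turned to -0.01 with no floor. The 8 others in the table were under the floor on both arrays, with 6 lower, 2 higher and a median of -0.07. That compares with 41.2% lower and a median of 0.08 over all such genes. H2-T3, the thymus leukaemia antigen that binds the CD8 alpha homodimer of intraepithelial lymphocytes, was 1.45-fold lower, from 1541 to 1065. Its second probe set, which can cross-hybridise, went from 1166 to 760, and near-identical genes of the same cluster may share these signals. Cxcl9, a chemokine for activated T cells, differed by -0.44 and reached 233 on the MIF array, just above the floor. In the other direction, the mucosal chemokine gene Ccl28 differed by 0.30. Il15, the cytokine on which intraepithelial lymphocytes depend, differed by 0.27, from 237 near the floor to 286.

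Interferon gamma is a product of the cells that make granzymes. Most of the assessed genes listed as induced by it were lower on the MIF array. Of 38 listed, 29 were in the table and 26 assessed. Of these, 25 were lower and 1 higher, and 9 were past 1.5-fold lower, against 53.3% lower and 0.463% past 1.5-fold lower over all assessed genes. The median was -0.40, counting 4 bounds at their floor value. With values under the floor raised to it, the 4 largest differences were in Upp1, a uridine phosphorylase (-1.16), the immunity-related GTPase gene Iigp1 (-0.99), and H2-Ab1 (-0.97) and H2-Eb1 (-0.95), which encode MHC class II chains. Ido1, a tryptophan-degrading enzyme, and Ubd, a ubiquitin-like protein gene, ranked below these only because their MIF signals were raised to the floor. Ido1 was at 422 and 136 and Ubd at 398 and 145, with bounds of -0.86 and -0.78. Their recorded signals gave larger log2 differences than Upp1, -1.63 for Ido1 and -1.45 for Ubd. Ifng itself was under the floor, at 40.6 with PBS and 26.0 with MIF. This list was drawn up with those differences known and shares genes with earlier results of these data, so its count is a description. Any link between interferon gamma and the granzyme values was not tested.

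**Figure D4:**
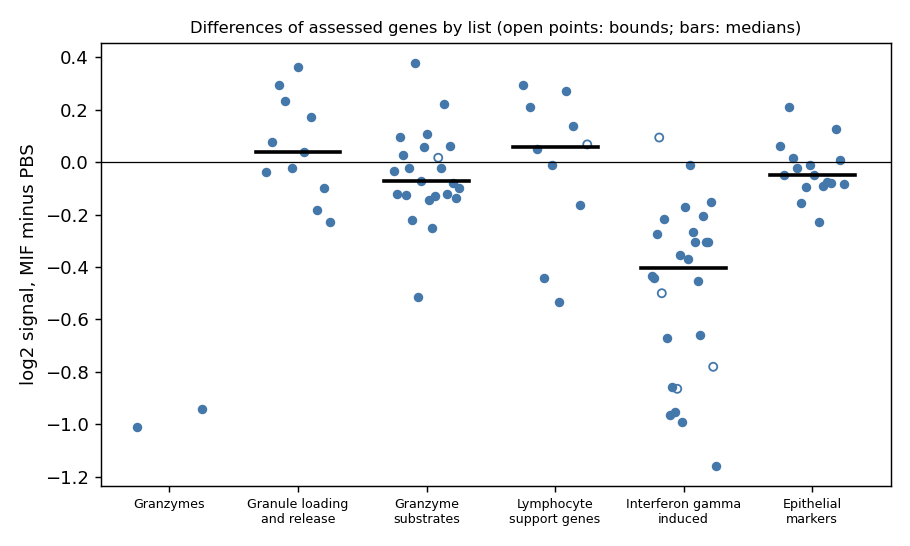
Points are the log2 differences, MIF minus PBS, of assessed genes in 6 lists, with open points for genes above the floor on a single array (bounds) and black bars for the median of lists with at least 5 genes. The granzymes lie at -1.01 and -0.94, the interferon gamma list has a median of -0.40, and the 4 other lists have medians between -0.07 and 0.06.

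Markers of epithelium and of the other cells a preparation could hold were examined in the same way. Of 17 epithelial markers in the table, 16 were above the floor on both arrays. Of these, 11 were lower and 5 higher, against 53.3% lower over all assessed genes, and none was past 1.5-fold. Their median was -0.05, which turned to 0.01 after quantile normalization and after a trend with signal was removed. The keratin gene Krt19 differed by -0.23, the cadherin gene Cdh1 by 0.21, the claudin gene Cldn3 by -0.15 and the chloride exchanger gene Slc26a3 by 0.13. The myeloid gene Cd14 was at 1318 and 1307, and Lyz2 was at least 1.05-fold higher. Of the 8 myeloid markers under the floor, 5 had a higher and 3 a lower recorded signal on the MIF array, near the background of 41.2% lower among all genes under the floor. Second probe sets of Csf1r and C1qb, both among the 5 higher, were lower, at 75.2 and 65.2 for Csf1r and 45.1 and 30.2 for C1qb. Xbp1 and Sdc1, plasma cell genes that epithelium also expresses, both differed by 0.02. The 3 others of that list in the table were under the floor, with 2 lower and 1 higher. Jchain, the joining chain of secreted antibodies, was at 23.4 and 6.86, and the heavy chain gene Ighm at 37.3 and 35.1, with its 2 other probe sets also lower.

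Fibroblast and smooth muscle genes were higher on the MIF array, opposite to the granzymes. Of 14 listed, 10 were in the table. The 3 assessed were the proteoglycan gene Dcn, 2.89-fold higher, the collagen gene Col3a1, at least 2.39-fold higher, and the intermediate filament gene Vim, at least 1.09-fold higher. The other 7 were under the floor and all had a higher recorded signal on the MIF array, with a summed signal of 294 and 702. Their median log2 difference was 1.19. Over all genes under the floor on both arrays, 41.2% were lower and the median was 0.08. Thy1, at 52.1 and 55.3, is among these 7 and is also counted among the T and NK cell genes. Of all assessed genes, 0.0685% were higher by at least 2-fold. The part of these cells in the granzyme values was not tested.

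The chromosomal neighbours of the granzyme genes were read from the gene order of GRCm38.p6, over the 8 protein-coding genes on each side. Gzma had 4 of its 16 neighbours in the table, and the 3 assessed differed by -0.22 (Plpp1), 0.0090 (Mtrex) and 0.03 (Ndufs4). Gzmb had 5 of 16 in the table. The adjacent gene Atp12a, a proton and potassium pump of the colon surface, was higher on the MIF array, at 949 and 1506, a log2 difference of 0.67. The 4 others, Parp4, Mphosph8, Pspc1 and Zmym5, differed by 0.08, -0.05, -0.05 and -0.32.

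The genes with differences closest to the granzyme mean of -0.98 were taken from genes with both signals above the floor. They were H2-Ab1 (-0.97), Iigp1 (-0.99), H2-Eb1 (-0.95), the calcium-binding protein gene S100g (-0.94) and the ribosomal protein gene Rps6 (-1.01). Likeness here rests on a single difference between 2 arrays. The 3 probe sets of H2-Ab1 gave differences from -1.05 to -0.88 and the second probe set of Iigp1 gave -1.18.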

How the data were processed

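The authors deposited 1 processed signal intensity per probe set and array, whose linear scale was read from the values. Per the labels' protocols, Trizol was used for RNA, from which biotin-labelled cRNA was made for Affymetrix arrays. How probes were summarised, background removed and arrays scaled is not stated in the sources used here. The 61 array controls were left out. Of 15279 probe sets, 14049 had 1 gene symbol in the platform annotation, which can be old. Of these, 14034 were updated through the Entrez ID, and a gene was its probe set of highest mean log2 signal. Signals were used as deposited, since their medians differed by 0.04 on the log2 scale. Values under the floor were raised to it before differences were taken.

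The members and the 15 gene lists were chosen with earlier results of these data known. Gzma, Gzmb, all assessed members of the lymphocyte, leukocyte and granule lists, the 4 largest differences of each other list and the 5 nearest genes were named by rule. Genes under the floor, chromosomal neighbours, Bid, Casp8, Ido1 and Ubd were named after their values were seen, and the promoter motifs were chosen with both sequences in view. The per-gene differences were tested on simulated data, with falls planted only in genes far above the floor. Those falls were larger than the granzyme differences, so the test does not cover values as near the floor as those of Gzma and Gzmb. The number of arrays limits the precision. Values were computed with pandas 2.3.3, numpy 2.4.6 and statsmodels 0.14.6 in Python 3.11.15, and plots were drawn with matplotlib 3.10.9. The 8 alternatives covered scaling, the floor, the choice of probe set and a loess trend (span 0.3).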

Additional observations from a re-analysis of the deposited data

How the results depend on the processing

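The log2 differences of Gzma and Gzmb were negative under all 8 alternatives, but several of these could not change them. Each gene has 1 probe set, not ending in _x_at or _s_at, so the choice of probe set had no effect. A floor at the 20th percentile and no floor had none either, since all their signals already exceeded the main floor. Under the scalings and the loess trend, both stayed within 0.15 of the reported values, which is the SD over probe sets of the same gene. With the floor at the 60th percentile, a signal of 498, both MIF signals lay under it. The differences then became bounds of -0.71 for Gzma and -0.12 for Gzmb. Counts of genes past a fold depended on the floor, which left 7338 genes assessed at the 20th percentile, 4010 at the 60th and 8721 with none. With the floor at the 20th percentile, 49 genes were lower and 98 higher by 1.5-fold, and 9 and 14 by 2-fold. With it at the 60th percentile the counts were 12 and 19, and 1 and 1. With no floor they were 198 and 455, and 79 and 170. Without probe sets ending in _x_at or _s_at, 2 genes were higher by 2-fold. Ranked by difference among assessed genes, bounds included, Gzma and Gzmb were at 4 and 10 of 5837 as reported, 75 and 87 of 8721 without a floor, and 8 and 934 of 4010 with the floor at the 60th percentile. The medians of the 5 lists with at least 5 assessed genes moved by less than 0.15 under every alternative. The granule list stayed between 0.00022 and 0.07 and the interferon gamma list between -0.44 and -0.35. Median centring raised the share of assessed genes that were lower from 53.3% to 62.1%. No paired analysis was possible because each group has 1 array.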
